A study of Mus musculus with 13 samples.

Results

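The genes of cholesterol synthesis and sterol regulation were followed in mouse liver by RNA sequencing, as 28 genes chosen by name out of 54532 in the count table. They comprised 8 mevalonate steps, 11 squalene and sterol steps, 4 genes of sterol sensing and 5 genes of sterol transport, ketone use, esterification and oxysterol synthesis. All 28 had a row in the table, and all 28 passed the filter on low counts. Ch25h, with at most 2 counts in any library without D-galactosamine and lipopolysaccharide, passed only through the libraries given these agents.

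Livers came from wild-type C57 BL6 mice aged 8 weeks and were collected 6 h after treatment, as 13 libraries in 4 groups. In the first group (dmPGE2+GalN/LPS, n = 4) 16,16-dimethyl prostaglandin E2 (dmPGE2, 300 µg/kg), a stable prostaglandin E2 analogue, was injected 1 h before D-galactosamine (500 mg/kg) with lipopolysaccharide (5 µg/kg). The second group received D-galactosamine with lipopolysaccharide alone (GalN/LPS, n = 3), a model of acute liver failure in which galactosamine blocks hepatocyte transcription and makes these cells sensitive to tumor necrosis factor. The third received dmPGE2 alone (n = 3), and the fourth saline (n = 3). For dmPGE2 alone the labels give no interval before collection other than 6 h. Separate animals per library are not stated in the labels, so p-values may measure only the spread between these libraries.

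Cholesterol is built in the cytosol and endoplasmic reticulum from acetyl-CoA through mevalonate, isoprenoid diphosphates, squalene and lanosterol. The transcription factor SREBP2 (Srebf2) drives nearly every enzyme of this chain. Its escort SCAP carries it to the Golgi for cleavage when membrane sterol is low, and the INSIG proteins hold both in the endoplasmic reticulum when sterol is high. 25-hydroxycholesterol, made by Ch25h in activated macrophages, is known to block SREBP2 processing through INSIG.

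Total counts ranged from 14829838 to 20777809 per library. The 6 hepatocyte markers took 8.36 to 15.2% of the counts of a library, none of them at 0. Levels are CPM scaled by TMM, edgeR's factors for library composition, unless FPKM, which also divides by gene length, is named. The factors ran from 0.683 to 0.830 in dmPGE2+GalN/LPS, 0.904 to 1.14 in GalN/LPS, 1.16 to 1.28 in dmPGE2 and 1.17 to 1.18 in saline libraries. Plain library totals in their place moved the median log2 fold change of all genes from 0.14 to -0.54 for dmPGE2+GalN/LPS against saline, from -0.10 to -0.61 against GalN/LPS, and from 0.025 to -0.15 for GalN/LPS against saline. Saline 3 stood apart from the other saline livers for these genes. It was the highest saline library in 18 of the 19 synthesis steps, which summed to 2005 CPM in saline 3, against 1411 and 1373 CPM in saline 1 and 2.

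Promoter sequence is given for 5 genes because they cover the first synthesis steps, the step with the largest dmPGE2 response among the sterol steps and the INSIG pair, whose mRNAs went opposite ways after GalN/LPS. RefSeq promoter windows on GRCm38.p6, from 250 bases before to 50 bases after a start, matched 23 of the 28 genes in 29 windows. Both strands were searched for the sterol regulatory element core CACCCCAC and for the CCAAT box of NF-Y, a factor that works beside SREBP2. The core was in 2 of the 29 windows (6.90%), in Hmgcs1 and Acat2, and in 2.87% of all 32851 windows. The CCAAT box was in 19 of the 29 (65.5%) and in 37.4% of all windows, and no match of one motif overlapped a match of the other in the windows of these genes. Scap, Aacs and Ch25h had neither motif in any of their windows. The 250 bases before the start are printed 5′ to 3′ on the strand of the gene, with matches to either motif, on either strand, in capitals. They lie at chr13:119690101-119690350 (plus strand, Hmgcs1), chr17:12960726-12960975 (minus, Acat2), chr8:64733579-64733828 (minus, Msmo1), chr5:28071162-28071411 (plus, Insig1) and chr1:121332590-121332839 (minus, the outermost of 3 Insig2 starts).
Hmgcs1: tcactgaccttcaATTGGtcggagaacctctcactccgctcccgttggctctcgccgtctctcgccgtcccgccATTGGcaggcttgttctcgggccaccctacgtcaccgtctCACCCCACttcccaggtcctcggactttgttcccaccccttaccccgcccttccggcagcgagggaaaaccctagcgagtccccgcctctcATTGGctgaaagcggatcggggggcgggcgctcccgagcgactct
Acat2: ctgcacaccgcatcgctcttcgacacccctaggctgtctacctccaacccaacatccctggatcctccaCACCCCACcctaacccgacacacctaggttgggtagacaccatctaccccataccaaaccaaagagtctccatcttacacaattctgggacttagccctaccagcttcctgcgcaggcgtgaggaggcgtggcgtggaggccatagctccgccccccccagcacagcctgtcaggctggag
Msmo1: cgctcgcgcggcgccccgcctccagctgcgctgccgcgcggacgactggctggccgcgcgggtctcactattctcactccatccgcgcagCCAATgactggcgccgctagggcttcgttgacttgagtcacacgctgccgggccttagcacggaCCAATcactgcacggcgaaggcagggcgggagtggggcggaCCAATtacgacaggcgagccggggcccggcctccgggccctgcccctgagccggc
Insig1: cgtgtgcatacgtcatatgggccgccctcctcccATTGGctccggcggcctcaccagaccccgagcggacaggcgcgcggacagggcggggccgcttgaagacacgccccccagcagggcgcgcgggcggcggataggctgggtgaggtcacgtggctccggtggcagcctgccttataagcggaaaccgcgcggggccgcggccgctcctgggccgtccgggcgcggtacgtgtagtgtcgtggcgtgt
Insig2: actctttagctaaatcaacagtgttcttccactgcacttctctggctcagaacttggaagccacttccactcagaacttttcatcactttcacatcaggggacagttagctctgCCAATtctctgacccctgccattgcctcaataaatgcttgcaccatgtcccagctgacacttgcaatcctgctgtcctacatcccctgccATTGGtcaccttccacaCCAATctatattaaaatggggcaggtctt

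Hmgcs1 held the core at position -136 and CCAAT boxes on the opposite strand from -237, -176 and -45, counted back from -1 at the last base before the start. Msmo1 had 3 CCAAT boxes, from -160, -96 and -55, and the outermost Insig2 window had 3, from -136, -46 and -29, while Insig1 had 1, from -216. The windows of the other Insig2 starts held neither motif, so the count for Insig2 depends on the start. These are matches of letters and not measured sites of binding.

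GalN/LPS livers had less mRNA of 10 of the 19 synthesis enzymes than saline livers, Hmgcs1 and Sqle among them. Hmgcs1, which makes HMG-CoA and opens the committed route (chromosome 13, 119690379 to 119708260), had 36.5, 21.9 and 21.2 CPM in GalN/LPS livers, against 135, 117 and 211 CPM in saline livers. The groups were far apart, and Hmgcs1 fell by 2.54 ± 0.25 on the log2 scale, 5.81-fold (± is the standard error of a log2 fold change, adjusted p = 4.38e-07, edgeR). Squalene epoxidase Sqle, the oxygen-dependent entry to the sterols, had 16.7, 13.3 and 15.7 CPM in GalN/LPS livers, against 44.6, 34.7 and 87.6 CPM in saline livers. It fell by 1.87 ± 0.31 on the log2 scale (adjusted p = 9.59e-05), with no overlap between the groups.

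Of the 19 synthesis steps 10 fell and 0 rose past the threshold of 0.05 on the adjusted p in this comparison, with a median log2 fold change of -0.66. Over all 28 genes 14 fell and 3 rose (median -0.55), while 25.6% of all 14280 genes tested were lower and 27.4% higher (median 0.025). The groups did not overlap in 13 of the 28 genes that lay lower and 3 that lay higher, against 29.5% and 30.3% of all genes. With library totals 15 fell and 3 rose, against 30% and 21.5% of all genes. In the mevalonate part Acat2, the thiolase that joins acetyl-CoA units (-0.70 ± 0.19), mevalonate kinase Mvk (-0.66 ± 0.21), the decarboxylase Mvd (-1.71 ± 0.30) and farnesyl diphosphate synthase Fdps (-2.11 ± 0.57) fell. The kinase Pmvk (0.26 ± 0.33), the isomerase Idi1 (0.16 ± 0.29) and Ggps1, which makes geranylgeranyl diphosphate on a branch (0.34 ± 0.25), did not pass the test. In the squalene and sterol part squalene synthase Fdft1 (-1.04 ± 0.19), lanosterol synthase Lss (-0.79 ± 0.22), methylsterol oxidase Msmo1 (-1.39 ± 0.21) and the ketosteroid reductase Hsd17b7 (-0.67 ± 0.18) fell beside Sqle.

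The other 6 squalene and sterol steps did not pass the test. Lanosterol demethylase Cyp51 had 153, 129 and 116 CPM in GalN/LPS livers, against 122, 118 and 154 CPM in saline livers (0.01 ± 0.18, adjusted p = 0.955). The sterol reductases Tm7sf2 (0.28 ± 0.16) and Dhcr7 (-0.50 ± 0.22), the dehydrogenase Nsdhl (-0.11 ± 0.20), the isomerase Ebp (-0.04 ± 0.16) and the desaturase Sc5d (-0.23 ± 0.22) were the others. The difference between the falling and the other steps was not tested. Dhcr7 was near the threshold (adjusted p = 0.0616) and fell past it in 7 alternatives, among them no filter on low counts (-0.64, adjusted p = 0.000904), library totals (-0.65, adjusted p = 0.0342) and each fit without saline 1, saline 2 or GalN/LPS 1. Mvk (adjusted p = 0.101) and Lss (adjusted p = 0.0586) no longer passed without saline 3, and Mvk did not pass without GalN/LPS 3 either (adjusted p = 0.0759). Without saline 3 Pmvk passed as higher (0.86, adjusted p = 0.016), so that 1 step rose, and the median of the 28 genes was -0.30.

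Some rows of the table carried limits of their own. Fdps had 8 to 92 counts per library, so its estimates are imprecise. Fdft1, with 22194 counts over all libraries, shares ground with the lysosomal protease gene Ctsb on the other strand, with 143471. Whether counting used strand is not given, so reads of the pair may be mixed. Ctsb rose by 1.01 ± 0.13 in GalN/LPS livers, opposite to Fdft1. Ggps1 (1332 counts) overlaps Arid4b (2565), and Cyp51 (41486) overlaps Akap9 (5162), each on the other strand.

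**Figure D1:**
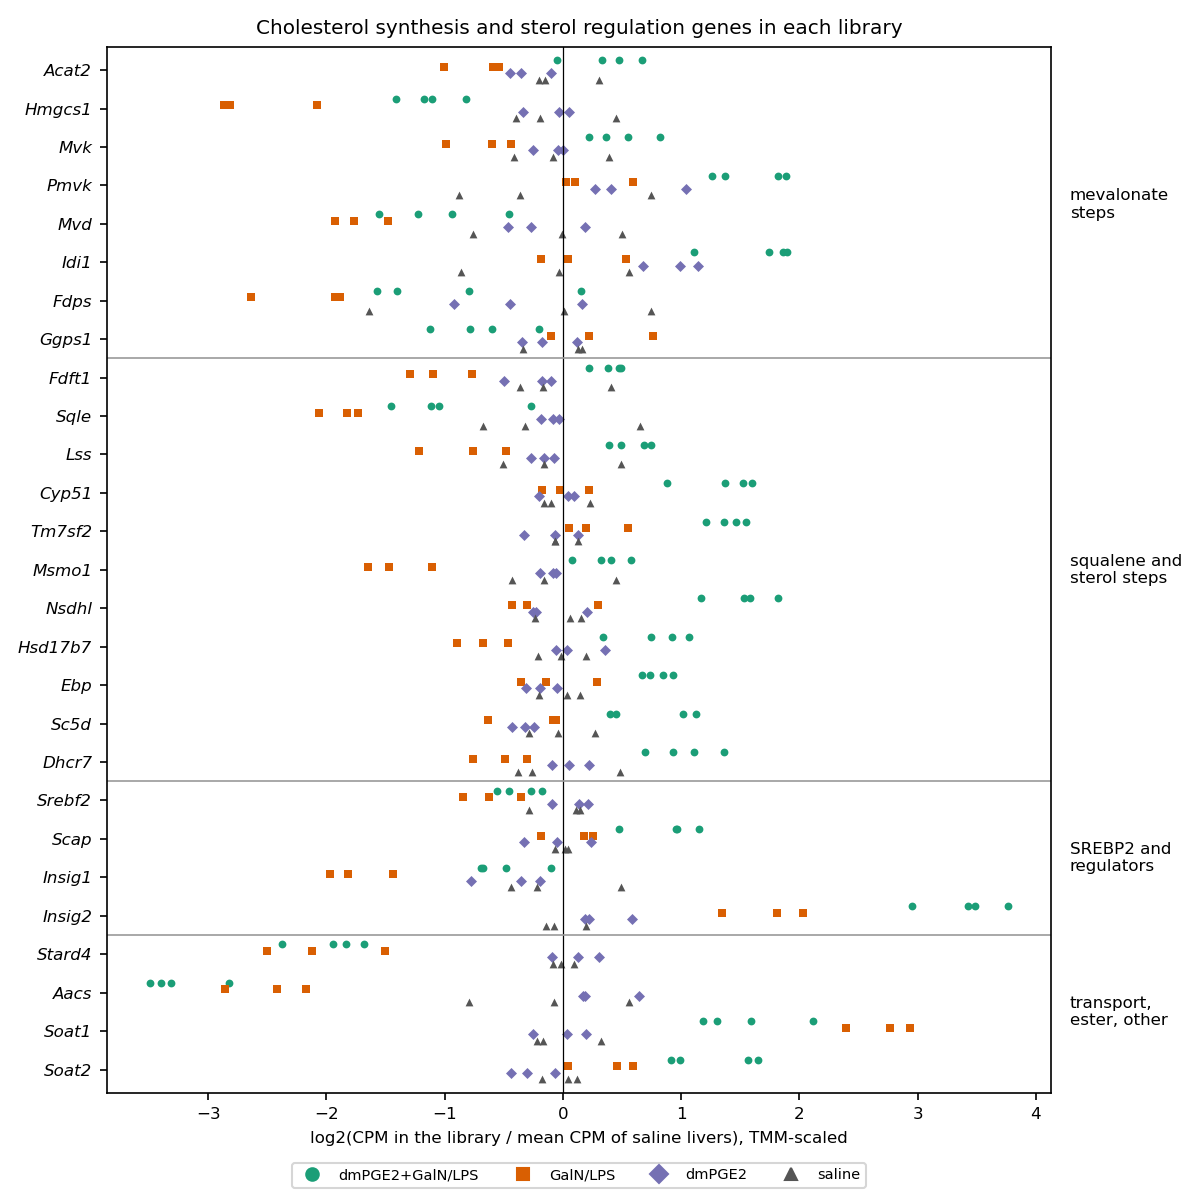
Level of 27 of the 28 genes in each of the 13 libraries, as log2 of TMM-scaled CPM over the mean of the 3 saline livers; rows follow the pathway, and Ch25h is left out because saline livers had 1 count in all. Each point is a library. For Hmgcs1 the GalN/LPS livers lie at 21.2 to 36.5 CPM and the saline livers at 117 to 211 CPM, while Insig2 is highest in the dmPGE2+GalN/LPS livers, at 503 to 883 CPM.

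The genes of sterol sensing did not move as a block after GalN/LPS. Srebf2 itself had 30.2, 25.9 and 36.4 CPM in GalN/LPS livers, against 50.1, 38.0 and 51.3 CPM in saline livers, and fell by 0.59 ± 0.16 on the log2 scale (adjusted p = 0.00518). The groups did not overlap, but GalN/LPS 3 was close to saline 2. Scap, the escort, was at 0.10 ± 0.18 (adjusted p = 0.682).

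The INSIG paralogues went opposite ways. Insig1, itself a target of SREBP2 (chromosome 5, 28071363 to 28078662), had 58.2, 83.9 and 64.5 CPM in GalN/LPS livers, against 195, 168 and 320 CPM in saline livers. It fell by 1.72 ± 0.24 on the log2 scale (adjusted p = 2.07e-05). Insig2 (chromosome 1, 121304353 to 121332589) had 165, 266 and 228 CPM in GalN/LPS livers, against 58.8, 74.5 and 61.6 CPM in saline livers. Every GalN/LPS library lay above every saline library, and Insig2 rose by 1.76 ± 0.21 on the log2 scale (adjusted p = 4.85e-06).

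Per gene length, the balance of the pair differed between livers with and without GalN/LPS. The ratio of Insig2 to Insig1 FPKM was 3.70, 2.75, 4.43 and 4.56 in dmPGE2+GalN/LPS, 2.52, 2.82 and 3.15 in GalN/LPS, 0.435, 0.498 and 0.379 in dmPGE2, and 0.269, 0.394 and 0.172 in saline livers. Insig2 was thus the more abundant INSIG mRNA in all 7 livers given GalN/LPS, and Insig1 in all 6 others. The ratios of the dmPGE2+GalN/LPS and GalN/LPS livers overlapped.

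Among the remaining genes Stard4 and Aacs fell, and Soat1 and Ch25h rose. Stard4, a carrier of free sterol between membranes (chromosome 18, 33199355 to 33213862), had 21.0, 32.2 and 16.1 CPM in GalN/LPS livers, against 90.2, 86.2 and 97.2 CPM in saline livers. It fell by 1.99 ± 0.22 on the log2 scale (adjusted p = 1.5e-06). Aacs, which activates acetoacetate for lipid synthesis, had 6.41, 10.3 and 8.69 CPM in GalN/LPS livers, against 68.7, 26.8 and 44.1 CPM in saline livers. It fell by 2.46 ± 0.29 on the log2 scale (adjusted p = 3.11e-06), and neither gene overlapped between the groups.

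Soat1, the cholesterol acyltransferase of macrophages and many other cells, had 17.3, 11.9 and 15.4 CPM in GalN/LPS livers, against 2.02, 1.94 and 2.83 CPM in saline livers, and rose by 2.71 ± 0.26 on the log2 scale (adjusted p = 3.34e-07). Soat2, the acyltransferase of hepatocytes and enterocytes, was at 0.38 ± 0.20 (adjusted p = 0.121), and passed as higher without GalN/LPS 3 (0.54, adjusted p = 0.0438). Soat2 was nonetheless the more abundant mRNA of the pair per length, with 12.4 to 17.2 FPKM in GalN/LPS and 10.5 to 13.003 FPKM in saline livers; Soat1 had 1.18 to 1.83 FPKM in GalN/LPS and 0.203 to 0.292 FPKM in saline livers.

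Ch25h (chromosome 19, 34473786 to 34475135) had 835, 334 and 1113 counts in GalN/LPS livers, against 0, 1 and 0 counts in saline livers (adjusted p = 5.67e-08). In levels these were 44.3, 21.0 and 56.9 CPM in GalN/LPS livers, against at most 0.0498 CPM in a saline liver. Ch25h passed the filter on low counts only through the livers given GalN/LPS, where it was high, so its entry to the test was not independent of this result. Each of the other 27 genes had at least 8 counts in every library. Markers of Kupffer cells and macrophages moved with Ch25h and Soat1: 8 of 9 rose and 0 fell, their summed level ran from 654 to 1060 CPM in GalN/LPS livers against 127 to 167 CPM in saline livers, and none was at 0 in either group. The 6 neutrophil markers summed to 653 to 865 CPM in GalN/LPS livers, against 4.33 to 15.98 CPM in saline livers, and 6 of 6 rose. Markers of sinusoidal endothelium (6 of 6), stellate cells (3 of 4) and cholangiocytes (4 of 4) rose as well. The part of these cells in either result was not tested. In whole liver, fewer cells of a type and less RNA per cell cannot be told apart. Of the 6 hepatocyte markers 0 passed the test here (median 0.24).

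**Figure D2:**
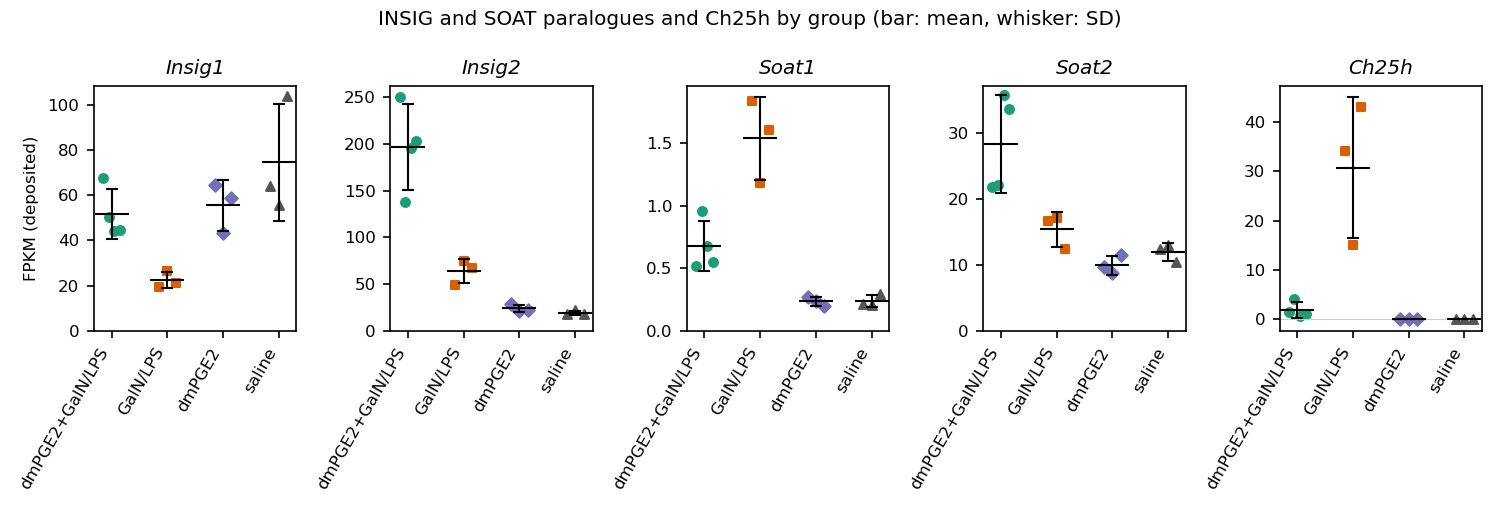
Deposited FPKM of Insig1, Insig2, Soat1, Soat2 and Ch25h by group, with each library as a point, the mean as a bar and the SD as a whisker; each panel has its own axis. Insig2 averaged 196.7 FPKM in dmPGE2+GalN/LPS, 63.5 FPKM in GalN/LPS and 19.0 FPKM in saline livers, while Ch25h averaged 30.7 FPKM in GalN/LPS and 1.85 FPKM in dmPGE2+GalN/LPS livers.

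Given before GalN/LPS, dmPGE2 was followed by higher mRNA levels of nearly every synthesis step than in GalN/LPS livers. Msmo1, which removes methyl groups from lanosterol products, had 229, 162, 192 and 204 CPM in dmPGE2+GalN/LPS livers, against 71.4, 55.2 and 48.9 CPM in GalN/LPS livers. It rose by 1.75 ± 0.20 on the log2 scale (adjusted p = 1.39e-05). Of the 19 steps 17 rose and 1 fell, with a median log2 fold change of 1.35. Over all 28 genes 21 rose and 4 fell (median 1.14), while 24.4% of all genes tested were higher and 30.1% lower (median -0.10). With library totals 15 steps rose and 1 fell (median 0.82), and of the 28 genes 17 rose and 4 fell, against 4.31% of all genes higher and 47.6% lower (median -0.61). The groups did not overlap in 21 of the 28 genes that lay higher and 3 that lay lower, against 22.7% and 27.7% of all genes. The GalN/LPS libraries serve in this comparison and in the last one, so their errors enter both.

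All 11 squalene and sterol steps rose, from 0.84 ± 0.16 for the sterol isomerase Ebp to the value of Msmo1. Nsdhl, a dehydrogenase of sterol demethylation, had 138, 108, 169 and 144 CPM in dmPGE2+GalN/LPS livers, against 59.0, 38.8 and 35.6 CPM in GalN/LPS livers (1.65 ± 0.20). Dhcr7, which closes the pathway by reducing 7-dehydrocholesterol, had 212, 156, 178 and 133 CPM in dmPGE2+GalN/LPS livers, against 66.8, 48.5 and 58.7 CPM in GalN/LPS livers (1.55 ± 0.21). None of these 3 steps overlapped between the groups. Sqle had 46.1, 26.8, 20.3 and 25.7 CPM in dmPGE2+GalN/LPS livers (0.96 ± 0.29, adjusted p = 0.0115), and did not pass with library totals (0.44, adjusted p = 0.242).

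In the mevalonate part Hmgcs1 rose to 71.5, 58.0, 68.2 and 87.2 CPM in dmPGE2+GalN/LPS livers, against 36.5, 21.9 and 21.2 CPM in GalN/LPS livers. Its log2 fold change was 1.42 ± 0.23 (adjusted p = 0.000183). Idi1 (1.52 ± 0.28), Pmvk (1.35 ± 0.31), Mvk (1.16 ± 0.20) and Acat2 (1.08 ± 0.18) rose as well. Mvd was near the threshold (0.72 ± 0.29, adjusted p = 0.0491) and failed it in 15 of the alternative analyses, with adjusted p up to 0.645. Fdps was at 1.36 ± 0.58 (adjusted p = 0.0559), with no overlap between the groups, and passed in 7 alternatives, among them DESeq2 (adjusted p = 0.0348) and no filter on low counts (adjusted p = 0.00535). Ggps1 went the other way, with 2.70, 5.12, 3.42 and 3.89 CPM in dmPGE2+GalN/LPS livers, against 9.97, 5.48 and 6.85 CPM in GalN/LPS livers. It fell by 0.97 ± 0.25 on the log2 scale (adjusted p = 0.00421), and the groups did not overlap.

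Both INSIG mRNAs were higher in dmPGE2+GalN/LPS than in GalN/LPS livers. Insig2 had 883, 503, 699 and 729 CPM in dmPGE2+GalN/LPS livers, against 165, 266 and 228 CPM in GalN/LPS livers. It rose by 1.68 ± 0.20 on the log2 scale (adjusted p = 2.36e-05), with no overlap. Insig1 had 213, 163, 141 and 142 CPM in dmPGE2+GalN/LPS livers, against 58.2, 83.9 and 64.5 CPM in GalN/LPS livers. It rose by 1.26 ± 0.23 on the log2 scale (adjusted p = 0.000432). Scap rose by 0.81 ± 0.17, but not with library totals (0.31, adjusted p = 0.163). Srebf2 was at 0.23 ± 0.15 (adjusted p = 0.197) with TMM and -0.28 (adjusted p = 0.237) with library totals, so its direction depended on the scaling.

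The genes beside the pathway were split. Ch25h had 25, 87, 11 and 18 counts in dmPGE2+GalN/LPS livers, against 835, 334 and 1113 counts in GalN/LPS livers. By edgeR, which takes in the spread between libraries, it fell by 3.93 ± 0.45 on the log2 scale (adjusted p = 1.34e-05). The ratio of pooled scaled counts was 0.0657, with a counting interval (95%) of 0.0550 to 0.0779. That interval covers counting error only and leaves out the spread between libraries. Soat1 fell by 1.11 ± 0.22 on the log2 scale (adjusted p = 0.000847), with 5.16, 9.83, 6.84 and 5.58 CPM in dmPGE2+GalN/LPS livers, against 17.3, 11.9 and 15.4 CPM in GalN/LPS livers. Within the dmPGE2+GalN/LPS group replicate 2 was the highest in both. Soat2 rose by 0.93 ± 0.19, with adjusted p = 0.0612 under library totals. Stard4 was at 0.05 ± 0.20 (adjusted p = 0.85) with TMM and -0.42 (adjusted p = 0.0914) with library totals. Aacs fell by 0.77 ± 0.29 on the log2 scale (adjusted p = 0.0321), a call that 8 alternatives lost, with adjusted p up to 0.145.

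Cell markers moved in this comparison too. All 9 Kupffer cell and macrophage markers fell, to a summed 290 to 453 CPM in dmPGE2+GalN/LPS livers against 654 to 1060 CPM in GalN/LPS livers, with none at 0. Of the neutrophil and the sinusoidal endothelium markers 6 of 6 fell, and of the stellate cell and the cholangiocyte markers 3 of 4. All 6 hepatocyte markers rose (median 0.77), to a summed 134297 to 214364 CPM in dmPGE2+GalN/LPS livers against 88418 to 129294 CPM in GalN/LPS livers. This separation depended on the TMM scaling. As a share of unscaled counts the markers took 10.1 to 15.2% in dmPGE2+GalN/LPS and 10.1 to 11.7% in GalN/LPS libraries, which overlapped. The synthesis steps, with a median of 1.35, were set against these markers by no test, and the part of cell makeup was not tested.

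Set against saline, the dmPGE2+GalN/LPS livers fell into 2 kinds of step, some above and some below the saline level. Of the 19 steps 11 were higher and 4 lower (median 0.59). Over all 28 genes 16 were higher and 7 lower (median 0.68), while 34.8% of all genes tested were higher and 30.2% lower (median 0.14). The scaling decided much of this: with library totals 5 steps were higher and 5 lower (median -0.09), and 9 genes of the 28 were higher and 9 lower, against 11.8% and 47.6% of all genes (median -0.54). The groups did not overlap in 14 of the 28 genes that lay higher and 3 that lay lower, against 32.6% and 29.2% of all genes. With TMM the 6 hepatocyte markers were higher as well, 6 of 6 (median 0.97), as were 6 of 9 Kupffer cell and macrophage markers (summed to 290 to 453 CPM in dmPGE2+GalN/LPS livers and 127 to 167 CPM in saline livers), 6 of 6 neutrophil markers (median 5.39) and 6 of 6 markers of sinusoidal endothelium (median 1.15). Their part in the results was not tested.

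Above saline under both scalings were Idi1, Pmvk, Cyp51, Tm7sf2 and Nsdhl. Idi1, which interconverts the isopentenyl diphosphates, had 95.3, 61.4, 104 and 106 CPM in dmPGE2+GalN/LPS livers, against 27.8, 15.7 and 42.0 CPM in saline livers (1.68 ± 0.28, adjusted p = 8.03e-05). Cyp51 had 341, 243, 377 and 398 CPM in dmPGE2+GalN/LPS livers, against 122, 118 and 154 CPM in saline livers (1.37 ± 0.18, adjusted p = 6.8e-06). Tm7sf2, a sterol reductase, rose by 1.40 ± 0.15, Nsdhl by 1.54 ± 0.20 and Pmvk by 1.61 ± 0.32. None of the 5 overlapped between the groups. Dhcr7, Hsd17b7, Ebp and Sc5d were higher with TMM alone (0.78 to 1.04) and did not pass with library totals. Mvk (0.50 ± 0.19) and Lss (0.59 ± 0.20) turned to -0.17 and -0.09 with library totals, and neither value passed; with TMM the call of Mvk failed in 11 alternatives.

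Below saline stood Hmgcs1, Mvd and Sqle, spread over the chain and not adjacent in it, with Ggps1 on its branch. Hmgcs1 had 71.5, 58.0, 68.2 and 87.2 CPM in dmPGE2+GalN/LPS livers, against 135, 117 and 211 CPM in saline livers (-1.12 ± 0.22, adjusted p = 0.000325), with no overlap. Sqle (-0.90 ± 0.27, adjusted p = 0.00906), Mvd (-0.99 ± 0.28, adjusted p = 0.00507) and Ggps1 (-0.63 ± 0.25, adjusted p = 0.0358) overlapped with saline. Without saline 3, Sqle (adjusted p = 0.138), Mvd (adjusted p = 0.0513), Ggps1 and Srebf2 no longer passed, and 3 genes of the 28 were lower in place of 7. Acat2, Fdps, Fdft1 and Msmo1 did not pass with TMM, and Fdps fell in 4 alternatives, library totals among them (-1.43, adjusted p = 0.02). Without saline 3, Acat2 (0.56, adjusted p = 0.0193), Fdft1 (0.65, adjusted p = 0.00379) and Msmo1 (0.65, adjusted p = 0.00558) passed as higher, and 19 genes of the 28 were higher in place of 16.

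Stard4 and Aacs were far below saline in the dmPGE2+GalN/LPS livers, as they were after GalN/LPS alone. Stard4 had 23.6, 28.4, 17.6 and 25.6 CPM in dmPGE2+GalN/LPS livers, against 90.2, 86.2 and 97.2 CPM in saline livers (-1.94 ± 0.20, adjusted p = 6.69e-07). Aacs had 4.13, 6.55, 4.67 and 4.40 CPM in dmPGE2+GalN/LPS livers, against 68.7, 26.8 and 44.1 CPM in saline livers (-3.23 ± 0.28, adjusted p = 1.1e-07). Neither gene overlapped between the groups.

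Insig2 stood 10.8-fold above saline in dmPGE2+GalN/LPS livers (3.44 ± 0.22 on the log2 scale, adjusted p = 6.9e-09; 2.74 with library totals). Insig1 was at -0.47 ± 0.22 (adjusted p = 0.0716) with TMM and fell past the threshold in 7 alternatives, library totals among them (-1.14, adjusted p = 0.000284). Srebf2 had 38.5, 41.1, 31.6 and 33.9 CPM in dmPGE2+GalN/LPS livers, against 50.1, 38.0 and 51.3 CPM in saline livers. It was near the threshold (-0.36 ± 0.15, adjusted p = 0.0437) and failed it in 9 alternatives. Scap rose by 0.91 ± 0.17, but not with library totals (0.23, adjusted p = 0.287). Soat2 (1.31 ± 0.19) and Soat1 (1.60 ± 0.25) were above saline under both scalings. Ch25h, with 141 counts in the 4 dmPGE2+GalN/LPS livers and 1 count in the 3 saline livers, was at 6.87 ± 1.09 on the log2 scale by edgeR. The ratio of its pooled scaled counts was 173, with a counting interval (95%) of 30.6 to 6889 that covers counting error only.

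**Figure D3:**
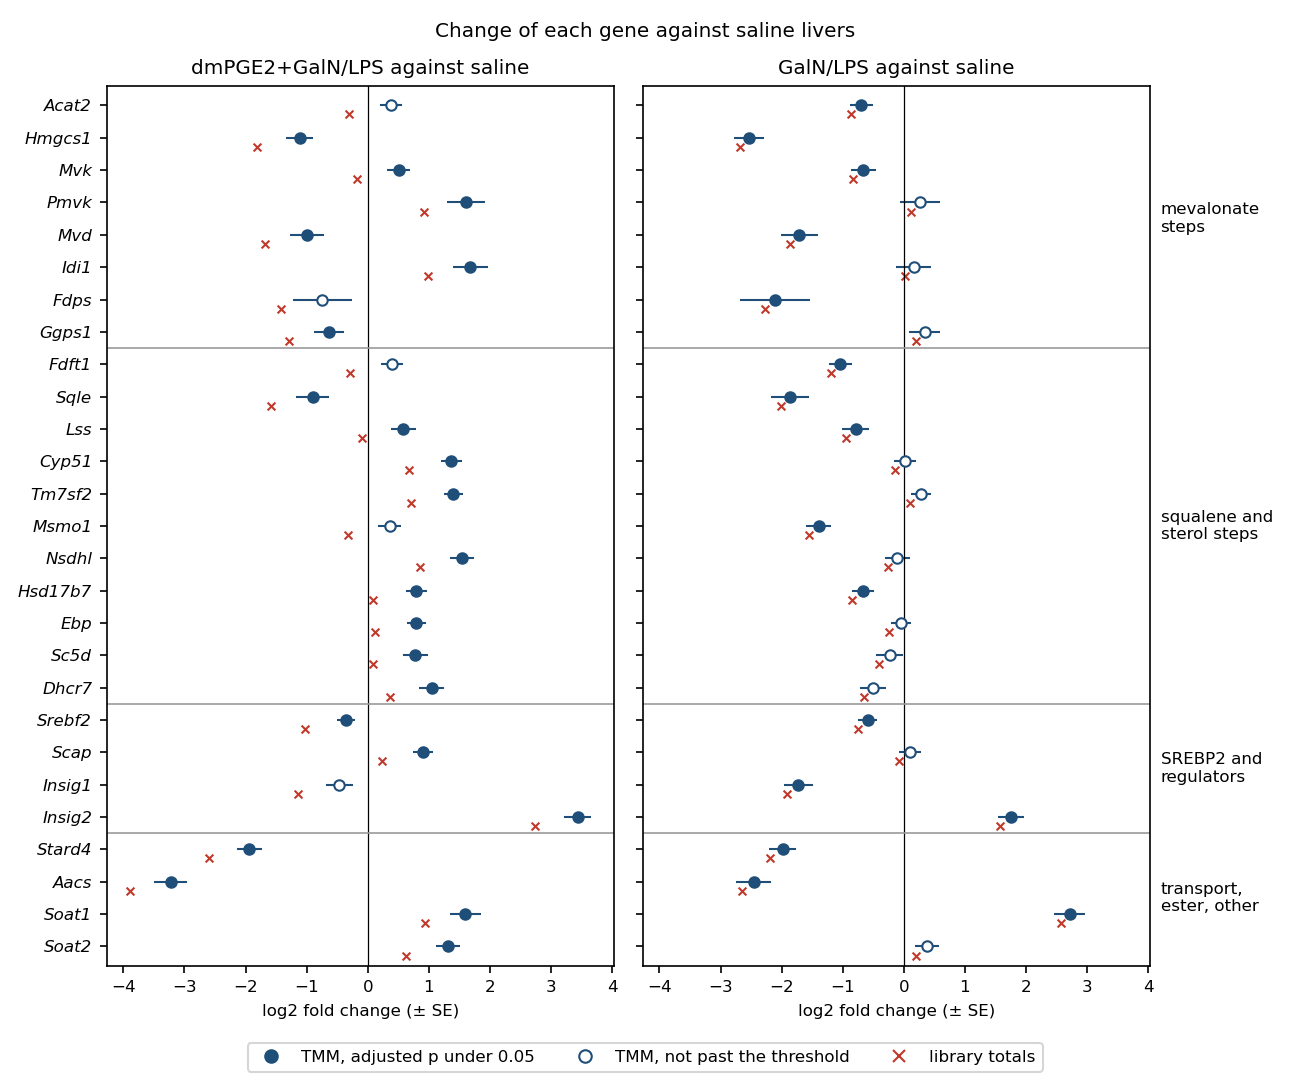
Log2 fold change against saline livers of 27 of the 28 genes, with dmPGE2+GalN/LPS livers on the left and GalN/LPS livers on the right; circles are TMM-scaled estimates with their standard error, filled where the adjusted p is under 0.05, and crosses are estimates with library totals. Crosses lie left of the circles by about the shift of all genes. Insig2 lies at 3.44 on the left and 1.76 on the right, and Hmgcs1 at -1.12 on the left and -2.54 on the right.

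In livers without GalN/LPS, dmPGE2 moved 0 of the 28 genes past the threshold (median -0.08, or 0.16 without saline 3, range from -0.42 to 0.95), and 0 of all 14280 genes (0%, median 0.016). At an unadjusted p under 0.05 there was 1 of the 28 genes and 13.9% of all genes. DESeq2 and limma on log2(FPKM + 1) also called 0 of the 28, with 137 genes higher and 140 lower in all by DESeq2. The largest estimate was that of Idi1, with 56.5, 45.7 and 63.1 CPM in dmPGE2 livers, against 27.8, 15.7 and 42.0 CPM in saline livers (0.95 ± 0.29, adjusted p = 0.172). Idi1 was the only one of the 28 without overlap between these groups, where 14.3% of all genes lay higher and 12% lower without overlap. With no filter on low counts Idi1 (0.98, adjusted p = 2.79e-06) and Pmvk (0.65, adjusted p = 0.0145) passed. That setting also called 290 genes higher and 171 lower of all 26810 tested, so calls were not limited to these genes. Standard errors of the synthesis steps ran from 0.16 to 0.50, which limits the changes that these libraries could show.

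The effect of dmPGE2 differed between livers with and without GalN/LPS for most sterol genes. The interaction, the log2 effect of dmPGE2 in GalN/LPS livers minus that in saline livers, was higher for 17 and lower for 2 of the 28 genes (median 1.23), where 15.4% of all genes were higher and 19.6% lower (median -0.11). Of the squalene and sterol steps 10 of 11 passed, but only Acat2, Hmgcs1 and Mvk did so among the 8 mevalonate steps. Idi1 was at 0.57 ± 0.39 (adjusted p = 0.267) and Pmvk at 0.73 ± 0.44 (adjusted p = 0.209), which passed with no filter on low counts (adjusted p = 0.0297). Sqle, the sterol step that did not pass (1.06 ± 0.41, adjusted p = 0.0546), passed in 4 alternatives. Ch25h did not pass, and its estimate rests on 2, 0 and 0 counts in dmPGE2 and 0, 1 and 0 counts in saline livers. It passed as lower in alternatives such as DESeq2 (-4.78, adjusted p = 0.0369) and limma on log2(FPKM + 1) (-3.51, adjusted p = 0.00107). With library totals 12 of the 28 genes were higher and 3 lower, against 1.27% and 36.5% of all genes. Cell markers differed in the interaction as well: 4 of 6 hepatocyte markers were higher (median 1.06), while 8 of 9 Kupffer cell and macrophage markers, 6 of 6 of sinusoidal endothelium and 3 of 4 of stellate cells were lower. Their part in the result was not tested. The interaction takes no account of a difference in the time after dmPGE2 between the 2 sets of livers.

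**Figure D4:**
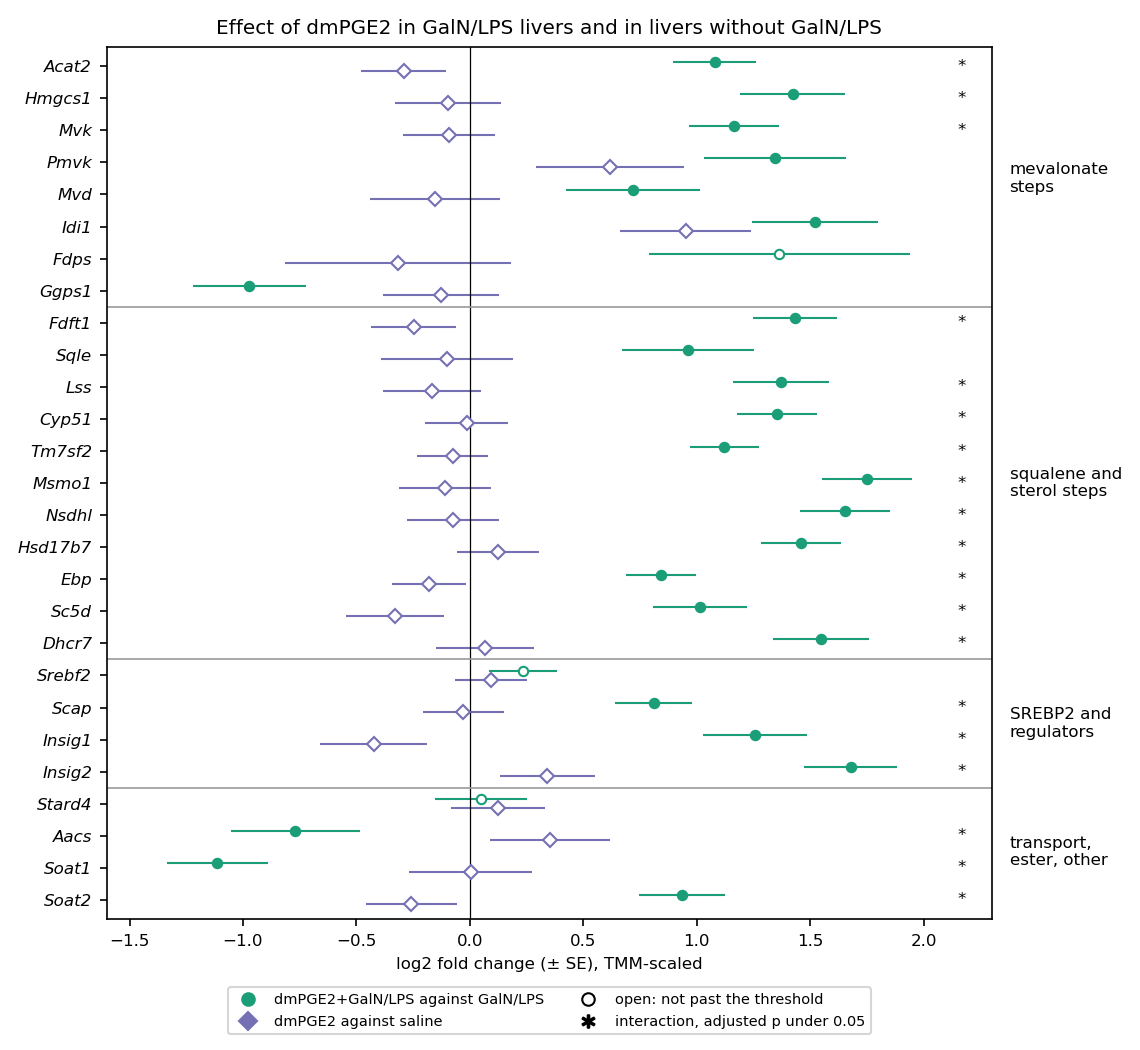
Effect of dmPGE2 on 27 of the 28 genes, as log2 fold change with its standard error, for dmPGE2+GalN/LPS against GalN/LPS livers (circles) and dmPGE2 against saline livers (diamonds); filled symbols passed the test and stars mark genes whose interaction passed. All 11 squalene and sterol steps lie right of 0 for the circles, from 0.84 to 1.75, while every diamond is open.

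Neighbouring pathways were read from lists, with TMM scaling only. Of 9 genes of LXR and sterol efflux, the arm that removes cholesterol from cells, 4 rose and 2 fell in GalN/LPS against saline livers (median -0.07), where 27.4% of all genes rose and 25.6% fell. The exporter Abcg1 averaged 14.97 ± 1.65 CPM in GalN/LPS livers and 2.24 ± 0.38 CPM in saline livers (SD, n = 3 each; 2.74 ± 0.31 on the log2 scale). Mylip, which degrades lipoprotein receptors, averaged 15.7 ± 4.37 CPM in GalN/LPS livers and 2.27 ± 0.78 CPM in saline livers (2.79 ± 0.38). Lpcat3, an LXR target of phospholipid remodelling, fell by 1.16 ± 0.14, so the list did not move one way. In dmPGE2+GalN/LPS against GalN/LPS livers 3 of the list rose and 3 fell, where 24.4% of all genes rose and 30.1% fell. Abcg1 (-1.12 ± 0.26) and Mylip (-1.11 ± 0.32) fell, and Lpcat3 rose (0.68 ± 0.13). Smpdl3a, also on the list, had risen by 1.17 ± 0.14 in GalN/LPS against saline livers and did not pass here (0.19 ± 0.13).

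Of 8 measured genes of SREBP maturation and of sterol-regulated protein degradation 0 rose and 2 fell in GalN/LPS against saline livers beside the 25.6% of all genes that fell. They were Sec24d, a coat protein of the vesicles that leave the endoplasmic reticulum (-1.56 ± 0.23), and Erlin1 (-0.83 ± 0.13), which helps to remove sterol-regulated proteins. In dmPGE2+GalN/LPS against GalN/LPS livers 6 of the 8 rose and 0 fell (median 0.45), beside 24.4% and 30.1% of all genes, Sec24d among them at 0.94 ± 0.22. Plain library totals moved the median of all genes from -0.10 to -0.61 in this comparison. The list was not counted under that scaling, so its rise may depend on TMM.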

How the data were processed

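RNA sequencing of liver gave 13 libraries, made from 1 µg of total RNA with the NEBNext Ultra kit per the labels. The authors deposited raw read counts per Ensembl gene, checked to be whole numbers, and FPKM, whose denominator was 0.706 to 1.28 times the library total and close to the TMM factor. The submitters' processing notes name HISAT2 and GRCm38; the sources used here give neither the read counter nor the annotation release or use of strand. Gene length in bases is a further deposited column. Columns named ALF were taken as GalN/LPS by elimination.

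Counts were fitted over all 13 libraries with edgeR 4.0.16 (R 4.3.3): filterByExpr by group kept 14280 of 54532 genes with 99.9% of counts, TMM, group as the only term, quasi-likelihood F test, two-sided, Benjamini-Hochberg over all genes tested at 0.05. Comparisons share groups: GalN/LPS libraries serve 2 of them and saline libraries 3. Totals were 14829838 to 20777809 counts, and counting intervals (exact Clopper-Pearson) cover counting error only. No 2 libraries of a group agreed within sampling noise. Every gene of the pathway list is described; of the neighbouring lists, up to 4 genes with the smallest adjusted p could be named. The genes, lists and motifs were chosen with earlier results of these data known. Alternatives used DESeq2 1.42.0 and limma 3.58.1, other scalings and filters, a replicate term and leaving out each library.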

Additional observations from a re-analysis of the deposited data

Results flagged for a closer look

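The effect of dmPGE2 differed between livers with and without GalN/LPS, by the test of the difference itself (edgeR's interaction at an adjusted p under 0.05), in 19 of the 28 genes. Of the 28, 17 were higher and 2 lower, where 15.4% of all 14280 genes tested were higher and 19.6% lower. Values are the log2 effect of dmPGE2 in GalN/LPS livers minus that in saline livers. Among the mevalonate steps the genes that passed were Acat2 (1.37), Hmgcs1 (1.52) and Mvk (1.26). Among the squalene and sterol steps they were Msmo1 (1.86), Nsdhl (1.73), Fdft1 (1.68), Lss (1.54), Dhcr7 (1.48), Cyp51 (1.37), Sc5d (1.34), Hsd17b7 (1.33), Tm7sf2 (1.20) and Ebp (1.02). The regulators Insig1 (1.68), Insig2 (1.34) and Scap (0.84) and the acyltransferase Soat2 (1.19) also had positive differences, and Aacs (-1.12) and Soat1 (-1.12) negative ones. The calls of Hmgcs1, Mvk, Ebp, Scap and Soat2 were lost with library totals, at adjusted p between 0.0522 and 0.456. Scap lost its call in 3 alternatives. Aacs lost its call in 10 alternatives (adjusted p up to 0.109) and Soat1 in 6 (adjusted p up to 0.0678). For both these included a replicate term and fits that left out a single library. Whether the livers without GalN/LPS were collected at the same interval after dmPGE2 is not recorded, and its part was not tested.

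In the dmPGE2+GalN/LPS group no library lay far enough from the other 3 in any of the 28 genes to pass Dixon's 95% critical value for the gap over the range. Ch25h (0.788) and Aacs (0.777) came nearest, both through the high level of replicate 2.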

How the results depend on the processing

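Of 3052 values of single genes under an alternative, 2842 kept their direction and their side of the threshold, 93 no longer passed, 51 newly passed and 64 changed sign without passing in either analysis. Mvk and Lss, higher in dmPGE2+GalN/LPS than in saline livers, turned to -0.17 and -0.093 with library totals; the cause was not tested beyond the shift of all genes given above. In the same comparison 9 genes of the 28 were higher with library totals (16 with TMM). With no filter on low counts 2 genes were higher with dmPGE2 alone and 4 were lower in the interaction (2 with the filter). Of all 26810 genes tested in that setting 290 were higher with dmPGE2 alone (0 with the filter). In the interaction 3075 of them were lower (2797 with the filter). Leaving out 1 library at a time gave 3 to 4 genes higher and 12 to 15 lower in GalN/LPS against saline, 20 to 22 and 3 to 4 in dmPGE2+GalN/LPS against GalN/LPS, 14 to 19 and 3 to 8 in dmPGE2+GalN/LPS against saline, 0 and 0 in dmPGE2 against saline, and 16 to 20 and 0 to 3 in the interaction. Over all 14280 genes these fits gave, in the same order, 3470 to 3980 higher and 3204 to 3763 lower, then 2596 to 3560 and 3398 to 4284. The rest were 4468 to 5032 and 3964 to 4346, 0 to 13 and 0 to 14, and 1480 to 2674 and 2006 to 3027. The 3 genes of the 28 lower against saline came without saline 3, and the 0 lower in the interaction without saline 2, GalN/LPS 3 or dmPGE2 1. The calls held under every alternative for 14 of 17, 20 of 25, 12 of 23 and 12 of 19 genes in the order GalN/LPS against saline, dmPGE2+GalN/LPS against GalN/LPS, dmPGE2+GalN/LPS against saline and interaction.

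Libraries with the same replicate number share only that number: their deviations from the group means correlated between -0.315 and 0.0873. With replicate number as a block the interaction was lower for 0 genes of the 28 (2 without it) and higher for 17. Over all 14280 genes it was lower for 2153 (2797 without the block) and higher for 1558 (2202 without it). The block gave 3 of the 28 higher and 15 lower in GalN/LPS against saline, 21 and 3 in dmPGE2+GalN/LPS against GalN/LPS, 16 and 5 in dmPGE2+GalN/LPS against saline, and 0 and 0 in dmPGE2 against saline. Over all 14280 genes the block gave, in the same order, 3714 higher and 3503 lower, 2974 and 3715, 4578 and 4036, and 0 and 0. The fit of only the groups compared was not run for the interaction, which uses all 4 groups. Low counts limited the estimates of Fdps, Soat1, Ggps1 and, in livers without GalN/LPS, Ch25h, and why these counts were low was not tested.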

Other observations

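Of 9 genes that handle sterol inside the cell 3 rose and 4 fell in GalN/LPS against saline livers, where 27.4% of all genes rose and 25.6% fell. In dmPGE2+GalN/LPS against GalN/LPS livers 4 rose and 4 fell, where 24.4% of all genes rose and 30.1% fell, so these counts do not set the list apart. Npc2, which hands cholesterol out of the lysosome, averaged 117 ± 8.64 CPM in dmPGE2+GalN/LPS (n = 4), 113 ± 5.10 CPM in GalN/LPS, 45.7 ± 2.22 CPM in dmPGE2 and 49.1 ± 5.25 CPM in saline livers (SD, n = 3 in the others). It rose in GalN/LPS against saline livers (1.20 ± 0.12) and was at 0.05 ± 0.11 in dmPGE2+GalN/LPS against GalN/LPS livers. The sterol carrier Stard5 (-1.63 ± 0.14) and the oxysterol-binding Osbpl2 (-1.41 ± 0.14) fell in GalN/LPS livers on the log2 scale, while Gramd1a, which moves sterol from the plasma membrane, rose by 1.62 ± 0.14.

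On the list of other oxysterol enzymes and an oxysterol receptor, 4 of 6 genes were measured well enough to be tested. Cyp27a1, the sterol 27-hydroxylase, averaged 988 ± 128 CPM in dmPGE2+GalN/LPS (n = 4), 460 ± 136 CPM in GalN/LPS, 365 ± 38.7 CPM in dmPGE2 and 283 ± 48.2 CPM in saline livers (SD, n = 3 in the others). It rose by 0.70 ± 0.20 in GalN/LPS against saline livers and by 1.10 ± 0.20 in dmPGE2+GalN/LPS against GalN/LPS livers. Ch25h fell in the last comparison, so Cyp27a1 and Ch25h were on opposite sides of it. Of the 4 tested genes of the list 2 rose and 0 fell there with TMM, where 24.4% of all genes rose and 30.1% fell. The other that rose was Cyp7b1 (0.79 ± 0.30, adjusted p = 0.0357, edgeR). Library totals were not applied to this list. Cyp46a1, another oxysterol-forming enzyme on the list, did not pass in that comparison (0.77 ± 0.57, adjusted p = 0.264, edgeR).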
